A study of Mus musculus with 3 samples.

Results

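A set of 9 genes of the RIPK and caspase 8 pathway was described: the kinases Ripk1, Ripk2 and Ripk3, the effector Mlkl, the nucleic acid sensor Zbp1, the protease Casp8, its regulator Cflar, and the adaptors Fadd and Tradd. They were chosen by name, with earlier results of these data known. All 9 of 9 symbols were found among the 55536 genes measured. Macrophages grown from mouse bone marrow were fractionated, and the total RNA of their cytosolic fraction was sequenced after removal of ribosomal RNA. The cells came from strain C57BL/6J, the labels name no mutant allele or transgene, and age and sex were not recorded. They received lipid A, the part of bacterial lipopolysaccharide that Tlr4 recognises, at 100 ng/ml for 12 hours, spent 12 hours without it, and received it again at 100 ng/ml for 60 minutes. These 3 biological replicates form the only group, so the values are levels after that treatment and not responses to it. The labels give the same donor entry for each replicate and do not say that the cultures came from separate animals, so the spread between libraries may be partly technical. In bulk RNA, fewer cells that express a gene and less RNA per cell cannot be told apart.

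Receptors such as the TNF receptor, TLRs that signal through Ticam1, and the sensor Zbp1 assemble complexes in which Tradd, Fadd, Ripk1 and Casp8 meet. Casp8 starts apoptosis and cleaves Ripk1 and Ripk3. Cflar is a relative of Casp8 without protease activity that pairs with it and limits its activation. When Casp8 is blocked, Ripk3 phosphorylates Mlkl, which then breaches the plasma membrane in the form of cell death called necroptosis. Ripk1, Ripk3 and Zbp1 bind one another through a short stretch called the RHIM. Ripk2 shares the kinase fold with them but serves the peptidoglycan sensors Nod1 and Nod2. In macrophages, these genes bear on whether stimulation by bacterial products ends in survival or in death.

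The bases that encode the RHIM core show which messages carry this contact. In annotated coding sequences on build mm10, the core was found once in Ripk1 (codons 528 to 531 of 656), once in Ripk3 (codons 448 to 451 of 486) and at 2 places in Zbp1 (codons 192 to 195 and 248 to 251 of 411). It was not found in the coding sequences of the 6 other genes. The capitals below mark the 12 bases of the core, with 15 bases on each side, and the 4 stretches are shown because they mark the transcripts whose levels follow. They lie in coding exons at chr13:34030078-34030089 on the plus strand for Ripk1, chr14:55785305-55785316 on the minus strand for Ripk3, and chr2:173212142-173212153 and chr2:173210609-173210620 on the minus strand for Zbp1.
Ripk1-201: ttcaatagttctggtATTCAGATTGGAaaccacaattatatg
Ripk3-201: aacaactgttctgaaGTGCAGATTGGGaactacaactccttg
Zbp1-201 first core: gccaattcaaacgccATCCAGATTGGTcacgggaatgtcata
Zbp1-201 second core: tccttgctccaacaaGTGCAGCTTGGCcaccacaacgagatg

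Levels were read as TPM, a unit scaled for gene length and for the library's total, so that genes can be compared within a library. The 9 genes spanned a wide range, with Zbp1 and Cflar far above the rest and Fadd, Ripk3 and Tradd at the low end. All 9 stood above 1 TPM, against 44.5% of the 20685 genes tested (limma on log2(TPM + 1), Benjamini-Hochberg adjusted p under 0.05). Their adjusted p lay between 2.3e-08 for Zbp1 and 3.1e-05 for Ripk2, and each gene was above 1 TPM in 3 of 3 libraries. The median of their mean TPM was 16.3, beside 0.68 over all genes tested and 7.77 over the 9774 genes with a mean of at least 1 TPM. The genes had been picked as known parts of a macrophage pathway, so the share above 1 TPM is a description.

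The RHIM kinases differed in level. Ripk1 (ENSMUSG00000021408.15, chr13:34002363-34037147, plus strand), the kinase recruited to the TNF receptor, had 17.4, 15.6 and 15.9 TPM in replicates 1, 2 and 3, a mean of 16.3 ± 0.972 (SD, n = 3). Ripk3 (ENSMUSG00000022221.14, chr14:55784995-55788865, minus strand), the kinase that acts on Mlkl, had 4.94, 4.26 and 4.26 TPM in the same order, a mean of 4.49 ± 0.393. Ripk3 was the lower of the pair in every library, and the values did not overlap. The ratio of Ripk3 to Ripk1 was 0.284, 0.274 and 0.268, a mean of 0.275 ± 0.0081. Ripk2 (ENSMUSG00000041135.15, chr4:16122733-16163647, minus strand) had 15.6, 15.2 and 7.88 TPM, a mean of 12.9 ± 4.35, and stood apart from the other kinases by its low value in replicate 3.

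Mlkl and Zbp1, the effector and the sensor of necroptosis, were both more abundant than the kinase between them. Mlkl (ENSMUSG00000012519.14, chr8:111311797-111338177, minus strand) had 44.8, 32.6 and 33.9 TPM, a mean of 37.1 ± 6.68 (SD, n = 3). Mlkl was 9.06, 7.65 and 7.95 times as high as Ripk3 in replicates 1, 2 and 3. Zbp1 (ENSMUSG00000027514.14, chr2:173206612-173218923, minus strand), which binds left-handed double helices through its Zα domains, had 219.9, 154.3 and 148.8 TPM, a mean of 174 ± 39.6. It was the highest of the 9 genes in every library. By mean TPM it ranked 254th among 14374 protein-coding genes measured outside the mitochondrial genome. Mlkl ranked 1256th, Ripk1 2739th and Ripk3 6220th.

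Among the genes of the Casp8 complex, the regulator Cflar was the most abundant. Cflar (ENSMUSG00000026031.15, chr1:58711508-58758884, plus strand) had 179.3, 137.7 and 109.2 TPM, a mean of 142 ± 35.2 (SD, n = 3). Casp8 (ENSMUSG00000026029.14, chr1:58795374-58847503, plus strand) had 40.9, 31.8 and 32.7 TPM, a mean of 35.1 ± 5.04. Cflar exceeded Casp8 by 4.38, 4.34 and 3.34 times in replicates 1, 2 and 3, so the excess was smallest in replicate 3. The 2 genes are neighbours on chromosome 1, 36489 bases apart, and the only gene annotated between them, Gm3841, was listed at 0 in all 3 libraries.

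The adaptors were the least abundant of the set together with Ripk3. Fadd (ENSMUSG00000031077.7, chr7:144577318-144582463, minus strand), which joins death receptors to Casp8, had 3.66, 3.26 and 3.17 TPM, a mean of 3.36 ± 0.261 (SD, n = 3). Casp8 was 11.2, 9.74 and 10.3 times as high as Fadd. Tradd (ENSMUSG00000031887.13, chr8:105258286-105264609, minus strand), which joins the TNF receptor to Ripk1, had 5.85, 4.58 and 4.79 TPM, a mean of 5.07 ± 0.681. Low TPM did not mean few reads here: Fadd, with a transcript of 3903 bases, held 1012, 1102 and 974 expected counts, while Tradd held 630, 621 and 555, and Ripk3 428, 513 and 465.

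By mean TPM, the order was Zbp1, Cflar, Mlkl, Casp8, Ripk1, Ripk2, Tradd, Ripk3 and Fadd, and each of the 8 neighbouring pairs stood in that order in 3 of 3 libraries. The library values of Zbp1 and Cflar overlapped, as did those of Mlkl and Casp8, of Ripk1 and Ripk2, and of Tradd and Ripk3. Those 4 pairs differed by less than the spread between libraries when the libraries were not matched. The other 4 steps, from Cflar to Mlkl, Casp8 to Ripk1, Ripk2 to Tradd and Ripk3 to Fadd, separated the values of all libraries. The last of these steps rests on the small transcript Ripk3-206, described with the transcripts of Ripk3: the coding transcript Ripk3-201 alone, at 3.13, 3.02 and 3.14 TPM, lay below Fadd in every library. In a second set of deposited tables, from another quantification of the same libraries, Ripk3 had 1.61, 1.64 and 1.55 TPM and Fadd had 1.46, 1.62 and 1.45, so the values overlapped there. No neighbouring pair was tested.

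**Figure D1:**
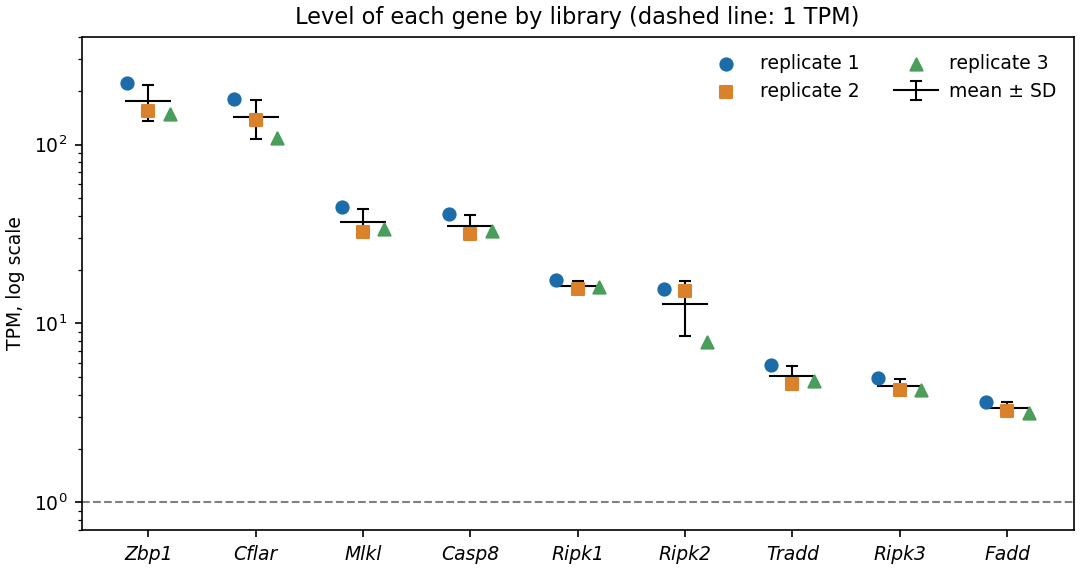
TPM of each gene on a log axis, with 1 point per library and the mean ± SD of 3 libraries as black marks. Zbp1 and Cflar lie above 100 TPM, Fadd lies lowest at 3.17 to 3.66 TPM, and every point lies above the dashed line at 1 TPM.

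The transcripts of Zbp1 divided into a long form with the RHIM and a short one without it. Zbp1-201 (1989 bases, 8 exons) encodes 411 codons with both RHIM cores printed above, and Zbp1-202 (770 bases, 4 exons) encodes 187 codons with none. They share 460 coding bases, which hold the start of the protein, where the Zα domains lie. After these bases Zbp1-201 goes on at chr2:173212237-173212266 and Zbp1-202 at chr2:173213880-173213909, both on the minus strand of mm10. The lower-case bases are the last 15 shared ones, and the capitals are the first 30 bases after the branch, all coding.
Zbp1-201: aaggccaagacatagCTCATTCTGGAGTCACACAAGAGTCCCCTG
Zbp1-202: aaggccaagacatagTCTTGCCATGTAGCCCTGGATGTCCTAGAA

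Zbp1-202 held 56.2%, 55.8% and 57.7% of the gene's abundance in replicates 1, 2 and 3, and Zbp1-201 held 43.5%, 44.0% and 41.4%. The short form was therefore the larger in every library, at 1.29, 1.27 and 1.39 times the long one. Its TPM was 123.6, 86.1 and 85.9, and that of Zbp1-201 was 95.7, 67.9 and 61.6. Counted in reads the order was the other way round: Zbp1-202, being shorter, held 28.5%, 28.4% and 29.3% of the gene's expected counts. The long form held 70.9%, 71.1% and 68.3%. Only 175 bases of Zbp1-202 lie after the branch, so its share rests on reads over a short stretch and on the effective length assigned to it. Of the 151 windows of 25 bases in that stretch, 4 also occur in annotated transcripts of other genes. The long form with its RHIM alone stood at 75.1 ± 18.2 TPM (SD, n = 3), above each of Ripk1 and Ripk3 in every library.

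Cflar transcripts also divided into a long and a short form, and here the long one predominated. Cflar-205 (6572 bases, 481 codons, with 4962 bases after the coding sequence) encodes the long protein, which carries a caspase-like part. Cflar-204 (2010 bases, 215 codons) shares 612 coding bases with it, which encode the death effector domains, and then ends after 36 more coding bases, stop codon included. At the branch Cflar-205 goes on in the next exon at chr1:58735658-58735687, whereas Cflar-204 reads straight on into the intron at chr1:58732327-58732356, the base next to the last shared one, 58732326. The sequences run on the plus strand of mm10, with the last 15 shared bases in lower case and the 30 bases after the branch in capitals.
Cflar-205: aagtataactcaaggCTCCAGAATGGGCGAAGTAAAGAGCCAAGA
Cflar-204: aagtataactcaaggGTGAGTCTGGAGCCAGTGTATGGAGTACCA

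Cflar-205 held 75.4%, 81.1% and 77.0% of the abundance of Cflar in replicates 1, 2 and 3, and Cflar-204 held 13.3%, 10.1% and 11.6%. The short form stood at 0.177, 0.125 and 0.150 of the long one, a mean of 0.151 ± 0.026 (SD, n = 3). Since the capitals of Cflar-204 are intronic for Cflar-205, reads of RNA not yet spliced would count for the short form too. The share of Cflar-204 was lowest in replicate 2 and highest in replicate 1, while the nuclear RNA Malat1 was highest in replicate 3 at 452 TPM, against 112 in replicate 1 and 90.6 in replicate 2. Whether unspliced RNA adds to Cflar-204 was not tested. Among transcripts without a coding sequence, Cflar-209 was the largest at 7.63%, 5.29% and 5.45%. The active-site core of caspases was found in all 4 coding sequences of Casp8 and in none of the 4 of Cflar.

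Cflar-204 and Cflar-205 share 574 windows of 25 bases with Gm9845, a processed pseudogene on chromosome 3. They make up 28.9% of the windows of Cflar-204, but none of them lie after its branch. Gm9845 was listed at 5.34, 3.16 and 2.23 TPM in replicates 1, 2 and 3, and the division of reads between it and Cflar is uncertain. Casp8 has a like relation with Gm20257, an unprocessed pseudogene on chromosome 1, which shares 301 windows with Casp8-201 and 178 with Casp8-202 and stood at 0.28, 0.26 and 0.32 TPM.

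Mlkl transcripts differ by a small insertion. Mlkl-201 encodes 472 codons and Mlkl-202 encodes 464, and the difference is an in-frame stretch of 24 bases, 8 codons, at chr8:111314941-111314964 on the minus strand of mm10, in the coding sequence. The capitals mark the inserted bases, and the lower-case bases are the 15 on each side that both share.
Mlkl-201: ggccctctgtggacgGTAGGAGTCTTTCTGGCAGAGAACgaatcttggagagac
Mlkl-202: ggccctctgtggacggaatcttggagagac

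The form without the insertion led in every library. Mlkl-202 held 87.1%, 87.3% and 85.8% of the abundance of Mlkl, and Mlkl-201 held 11.3%, 11.8% and 10.4%. The rest was Mlkl-203, a transcript without a coding sequence, at 1.55%, 0.94% and 3.81%, highest in replicate 3. Mlkl-204, annotated as coding with an incomplete coding sequence, was at 0 in these tables. In the second set of tables it held 12.9%, 10.3% and 8.16%, beside 15.9%, 12.0% and 10.9% for Mlkl-201.

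In Casp8 and in Ripk1, the leading pair of transcripts differed outside the coding sequence alone. Casp8-202 held 61.5%, 58.6% and 59.0% of the abundance of Casp8 and Casp8-201 held 28.9%, 32.4% and 31.7%. They encode the same 480 codons. Casp8-203, which encodes 500 codons, held 9.03%, 8.81% and 8.92%. With Casp8-204, which encodes the same 500 codons, it came to 9.28% ± 0.30 (SD, n = 3), but to 22.7% ± 3.46 in the second set of tables, where Casp8-204 alone held 11.6%, 12.4% and 12.4%. For Ripk1, Ripk1-201 held 83.9%, 85.4% and 82.6%, and Ripk1-203 held 15.7%, 14.3% and 15.9%. Both encode the same 656 codons with the RHIM core, and Ripk1-203 has 4365 bases after the coding sequence, against 895 in Ripk1-201.

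Ripk3 had the smallest share of coding transcripts in the first tables, at 71.2% ± 6.87 (SD, n = 3), but not in the second, where it was 92.3% and that of Cflar was 82.0%. Ripk3-201, which carries the RHIM core, held 63.3%, 70.9% and 73.7% of the abundance of Ripk3 in replicates 1, 2 and 3. Nearly all the rest was Ripk3-206, a retained-intron transcript of 478 bases, at 36.7%, 24.3% and 25.4%. This share rested on 35.4, 25.5 and 22.7 expected counts, which were 8.27%, 4.97% and 4.88% of the counts of the gene. The deposited interval for Ripk3-206 ran from 0.918 to 2.80 TPM in replicate 1, from 0.395 to 1.78 in replicate 2 and from 0.412 to 1.89 in replicate 3. Ripk3-201 alone had 3.13, 3.02 and 3.14 TPM, closer together than the gene's total of 4.94, 4.26 and 4.26. In the second set of tables Ripk3-201 held 90.6% ± 10 (SD, n = 3), so the level of Ripk3 as a gene depended on how those few reads were assigned. With coding transcripts alone, the ratio of Ripk3 to Ripk1 was 0.197 ± 0.0144 and that of Mlkl to Ripk3 was 11.5 ± 2.28.

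The remaining genes each rested on a single coding transcript. Ripk2-201 held 99.0%, 99.4% and 100%, Tradd-201 held 97.0%, 100% and 94.0%, and Fadd-201, the only transcript of its gene, held 100%.

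**Figure D2:**
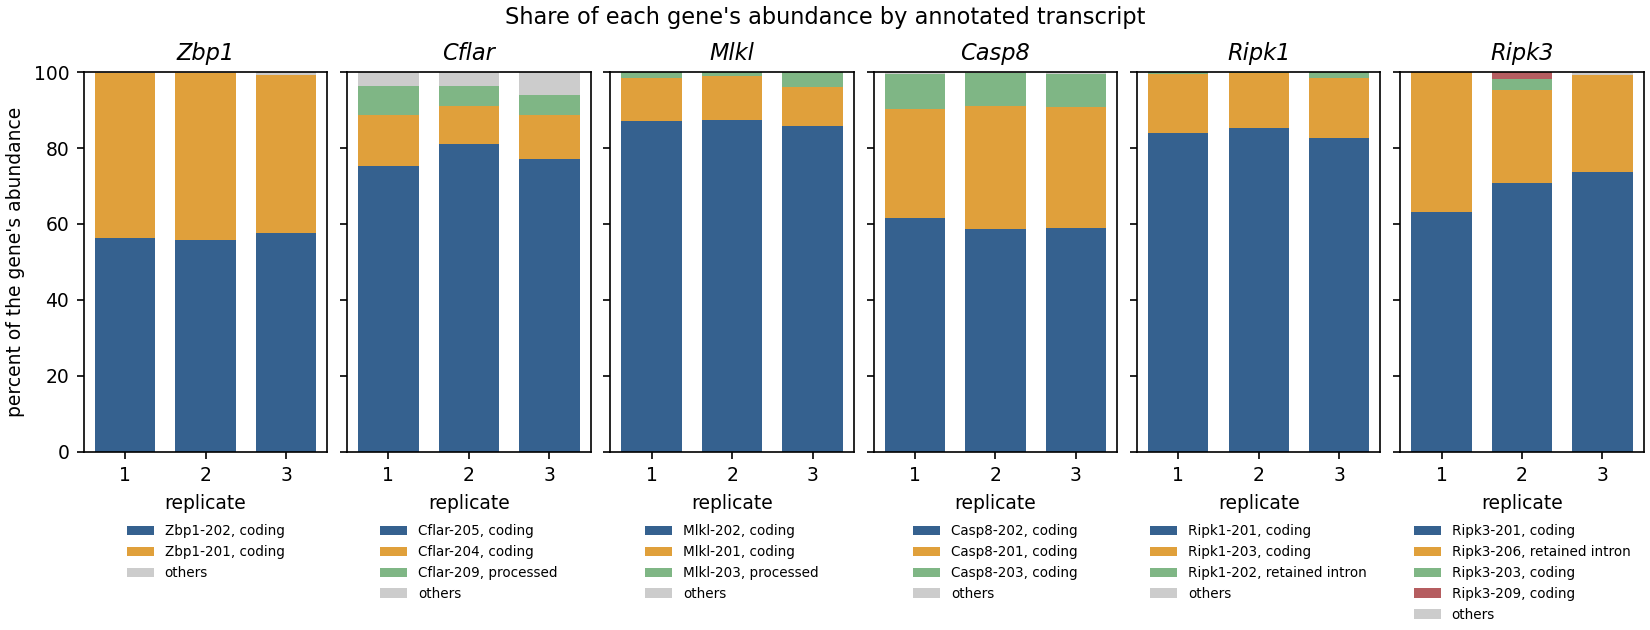
Percent of each gene's abundance in each annotated transcript, as stacked bars for replicates 1, 2 and 3, with coding, processed and retained-intron transcripts named in the keys. Zbp1 divides between 2 coding forms, Cflar, Mlkl and Ripk1 are led by 1 form above 75%, and Ripk3-206 is widest in replicate 1 at 36.7%.

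**Figure D3:**
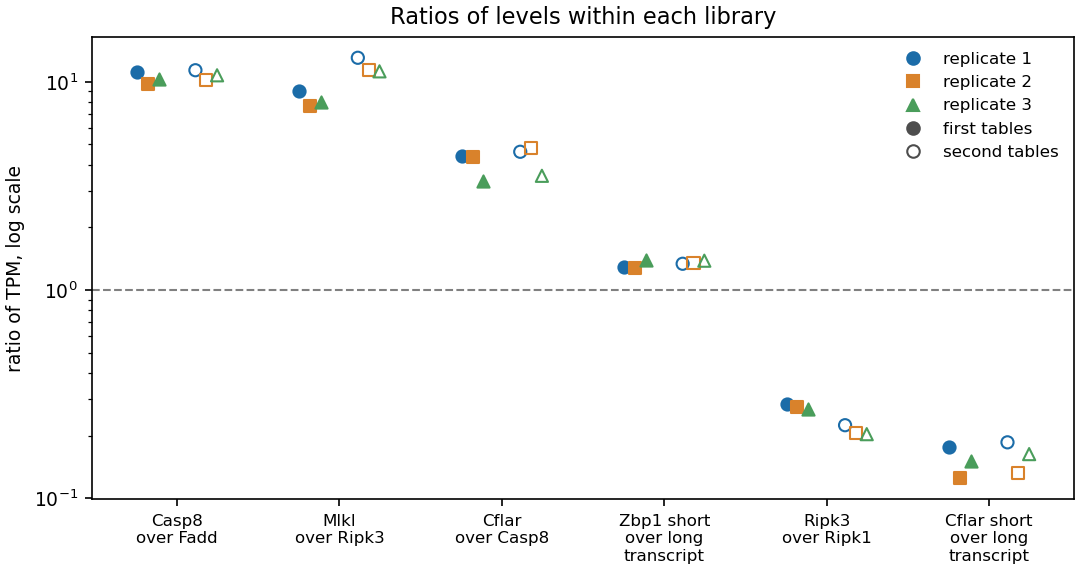
Ratios of TPM within each library on a log axis, with filled symbols for the first tables and open symbols for the second. The ratio of Mlkl to Ripk3 averaged 8.22 in the first tables and 11.9 in the second, and every ratio lay on the same side of 1 in all 3 libraries and in both sets of tables.

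The libraries differed in scale, which sets how the genes appear to move between them. Protein-coding genes outside the mitochondrial genome held 34.5%, 29.0% and 27.5% of the TPM in replicates 1, 2 and 3. The median gene was 0.17 higher on the log2 scale in replicate 1 than in replicate 2 and 0.23 higher than in replicate 3. All 9 genes were highest in replicate 1 by TPM, as were 67.8% of the genes with a mean of at least 1 TPM. After TMM scaling of counts, which removes such a shift, 5 of the 9 were highest in replicate 1, 1 in replicate 2 and 3 in replicate 3, beside 34.9%, 35.1% and 30% of those genes. Expected counts on genes totalled 50807046, 53364168 and 46546422, so 3 counts, the limit that a count of 0 allows, were worth 0.059, 0.0562 and 0.0645 in CPM, the count over the library total at a fixed scale, for counting error only.

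Beyond counting error, 7 of the 9 genes varied between libraries, against 69.3% of the 13075 genes tested (chi-square test per gene on rounded expected counts against library totals, Benjamini-Hochberg adjusted p under 0.05). That count is near the background, so it is no result about these genes. Fadd and Tradd did not pass (adjusted p = 0.57 each). Ripk3 passed narrowly (adjusted p = 0.042) and did not pass with TMM library sizes (adjusted p = 0.20). Without replicate 1 the calls numbered 5, with Ripk3 and Zbp1 lost, beside 51.6% of all genes tested. Without replicate 2 there were 6, with Casp8 lost, beside 51.3% of genes. Without replicate 3 there were 5, with Ripk1 and Ripk3 lost, beside 53.9% of genes.

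Ripk2 had the widest range. Its TMM-scaled level was 58.7, 64.0 and 34.4 CPM in replicates 1, 2 and 3, so the highest was 1.86 times the lowest, a ratio larger than that of 94.2% of the 9774 genes. Its chi-square against library totals was 443 (adjusted p = 1.4e-95), and replicate 3 was the low one on every scale. The 5 genes whose profile over the 3 libraries was most like it, by Euclidean distance of centred log2 TMM-scaled CPM among 4126 genes with a mean of at least 10 TPM, were Fabp4 at a distance of 0.021, Prdm1 at 0.050, Marcksl1 at 0.055, Rasgef1b at 0.073 and Btg2 at 0.081. With 3 libraries such a likeness is loose, and 10 genes lay within 0.1.

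Cflar and Zbp1 also varied, each highest in replicate 1, although Cflar was highest in replicate 2 in the second set of tables. Cflar had 1415, 1275 and 1013 CPM after TMM scaling, a range of 1.40 times that exceeded 81.7% of genes. Its chi-square against library totals was 2535. Zbp1 had 363, 288 and 281 CPM, a range of 1.29 times that exceeded 70.9% of genes. For Zbp1 the chi-square test gave adjusted p = 1.2e-98 against library totals and 9.7e-145 with TMM library sizes. Zbp1 is itself induced by interferon in mouse cells. The 10 interferon-stimulated genes listed for comparison, among them Ifit1, Isg15 and Rsad2, were all highest in replicate 1 after TMM scaling, and their summed TPM was 7734, 3802 and 4080. Of genes with a mean of at least 1 TPM, 34.9% were highest there. Lists not chosen for interferon leaned the same way in part. Of the pathway genes described below, 6 of 7 executioners and 6 of 10 upstream genes were highest in replicate 1, against 2 of 6 macrophage markers. The part of interferon signalling in the level of Zbp1 was not tested.

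The other genes stayed closer. Mlkl had 118, 97.1 and 102 CPM after TMM scaling, and Casp8 had 116, 102 and 109. The chi-square test with TMM library sizes gave adjusted p = 8.4e-26 for Mlkl and 4.8e-10 for Casp8. Ripk1 had 93.8, 92.7 and 99.2 CPM (adjusted p = 0.0032 in that test). Tradd had 12.8, 11.5 and 11.7 CPM, and Ripk3 had 8.67, 9.49 and 9.83. After TMM scaling Fadd was the steadiest at 20.5, 20.4 and 20.6 CPM. Its range there was 1.01 times, smaller than that of all but 0.215% of genes. This did not hold on every scale. By TPM the range of Fadd was 1.15 times, wider than the 1.12 of Ripk1. In the second set of tables it was 1.12 times, wider than the 1.06 of Ripk3. The median range of the 9 genes after TMM scaling was 1.14 times, against 1.19 over the 9774 genes.

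**Figure D4:**
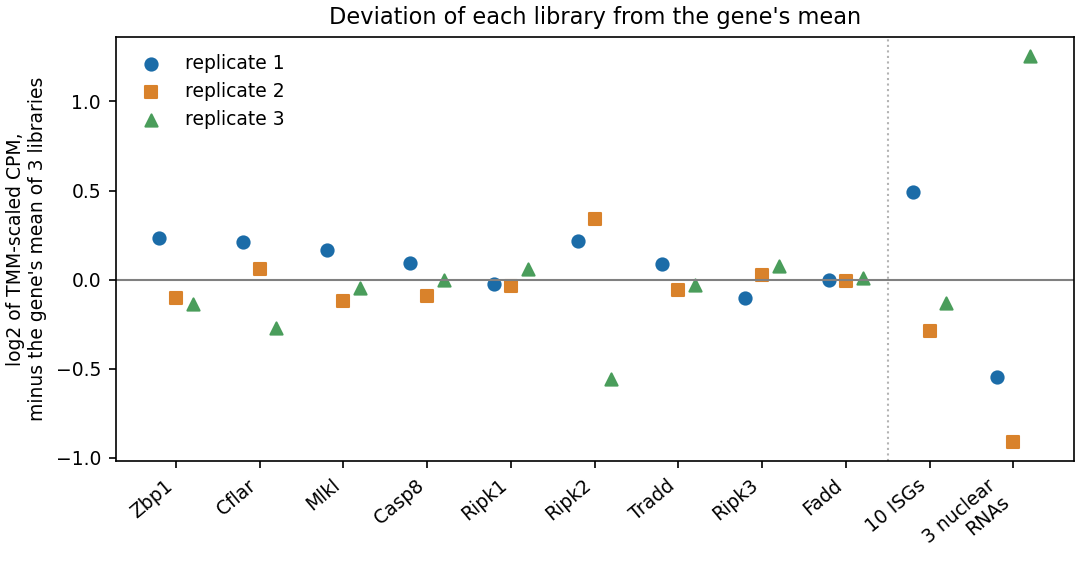
Log2 of TMM-scaled CPM in each library minus the gene's mean over 3 libraries, for the 9 genes and, right of the dotted line, for the median of 10 interferon-stimulated genes (ISGs) and of 3 nuclear RNAs. Ripk2 lies lowest in replicate 3, Zbp1 and the ISGs lie highest in replicate 1, Fadd lies at 0 in each library, and the nuclear RNAs lie highest in replicate 3.

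Retained-intron transcripts took a small part of the reads of the 9 genes summed. Of 8 annotated ones, 6 had a count, and together they held 0.216%, 0.163% and 0.720% of the counts of the 9 genes in replicates 1, 2 and 3, beside 1.22%, 1.17% and 1.39% over all genes. Cflar, with 69857, 68919 and 47895 expected counts, weighs most in that sum. Gene by gene, Ripk3 lay above the share of all genes in each library, at 8.27%, 4.97% and 4.88%. Zbp1 lay above it in replicate 3 alone, at 0.657%, 0.466% and 2.43%. Cflar, Ripk1 and Tradd lay below it in each library. Replicate 3 was the highest for 4 of the 6, of which Tradd-202 had 1.95 expected counts there and 0 in the others. Zbp1-203 had 118, 72.5 and 323 expected counts, Cflar-213 had 70.2, 68.2 and 186, and Ripk1-202 had 8.65, 6.85 and 37.7. The nuclear RNAs Malat1, Neat1 and Rn7sk were highest in replicate 3 too, with Neat1 at 10.9, 7.10 and 29.7 TPM. The part of nuclear RNA in these counts was not tested. Ripk3-206 and Tradd-204 went the other way and were highest in replicate 1, Tradd-204 with 3.28 expected counts there and 0 in the others.

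**Figure D5:**
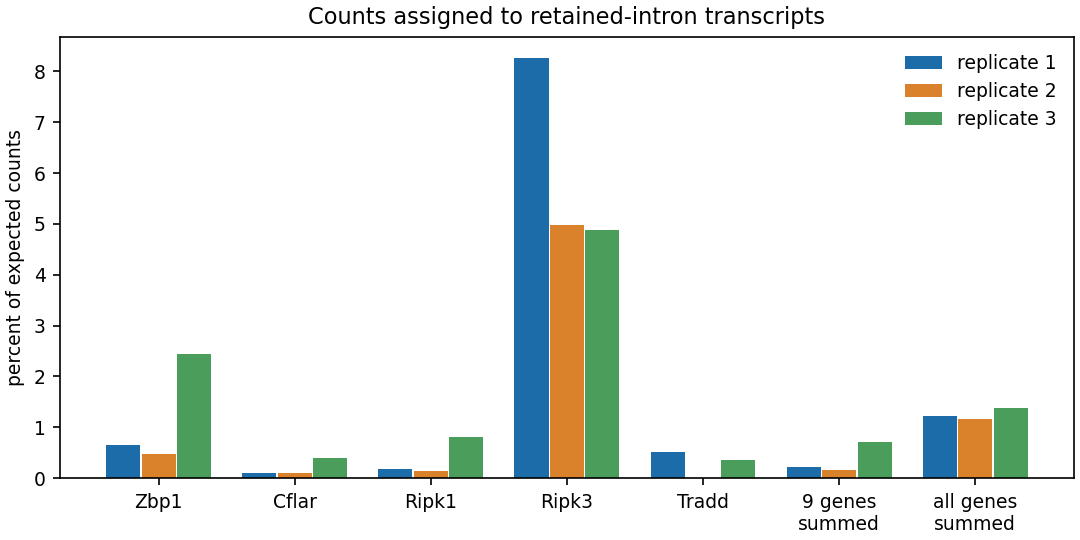
Percent of expected counts assigned to retained-intron transcripts, as bars from 0 for replicates 1, 2 and 3, in the 5 genes with such counts, in the 9 genes summed and in all genes summed. Zbp1, Cflar and Ripk1 are highest in replicate 3, with Zbp1 at 2.43%, and Ripk3 is highest in replicate 1 at 8.27%.

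The other genes of the pathway had medians close to that of the 9 genes. Of 10 receptors, ligands and adaptors upstream, 9 stood above 1 TPM and 1 below it, with a median of 19.2 TPM. The highest were Tnf, the ligand, at 1206 ± 332 TPM (SD, n = 3) and its receptor Tnfrsf1a at 44.2 ± 7.94. Tnfrsf10b, a death receptor for TRAIL, was the one below at 0.31 ± 0.061 TPM (limma adjusted p = 2.5e-05). Of 18 regulators of the complexes, 17 stood above 1 TPM, with a median of 15.04 TPM. The highest were Tnfaip3, an enzyme that edits ubiquitin chains, at 236 ± 74.3 TPM and Mapkapk2, a kinase that phosphorylates Ripk1, at 92.5 ± 19.8. The lowest measured was Map3k7, the kinase TAK1, at 6.15 ± 0.785, and Ripk4, a relative of the RIP kinases, was listed at 0. All 7 executioners stood above 1 TPM, with a median of 15.5. Gsdmd, the pore former of pyroptosis, was the highest at 43.8 ± 8.21 TPM, and Gsdme was the lowest at 1.52 ± 0.282 (adjusted p = 0.010). In the second tables Gsdme lay below 1 TPM in each library, at 0.752, 0.875 and 0.624. Over all genes tested in the first tables, 44.5% stood above 1 TPM.

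The label of macrophage was set against marker genes. All 6 macrophage markers stood above 1 TPM, with summed levels of 5972, 4432 and 4597 TPM. Of 6 neutrophil markers, S100a8 at 3.14 TPM and S100a9 at 4.66 stood above 1 TPM, while Ly6g and Retnlg were at 0. None of 4 B cell, 4 T and NK cell, 4 dendritic cell or 3 mast cell markers stood above 1 TPM. Of 4 stromal markers, 3 could not be placed and 1 stood below 1 TPM, and the sum of all 4 was 0.06, 6.5 and 2.83 TPM in replicates 1, 2 and 3. The part of other cells in the levels of the 9 genes was not tested.

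Neighbouring and overlapping genes limit some values, since the strand setting of the counting is not given in the sources used here. Ripk1 overlaps Serpinb6a by 432 bases on the opposite strand, and Serpinb6a stood at 124, 128 and 90.7 TPM, above Ripk1 in each library. The pseudogene Gm17084 overlaps 511 bases of Ripk1 on the same strand and was listed at 5.13, 4.02 and 4.05 TPM. It shares 487 windows of 25 bases with Ripk1-203, so the share of that transcript is uncertain. Fadd overlaps its antisense gene Faddos, which stood at 0.02, 0.06 and 0.08 TPM. No window of 25 bases of Ripk2-201, Ripk3-201 or Zbp1-201 was found in annotated transcripts of another gene.

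Promoter sequence from RefSeq on GRCm38.p6, from 250 bases before to 50 after each start, was at hand for 6 of the 9 genes, and Ripk2, Zbp1 and Tradd had no entry. The core of the interferon-stimulated response element, GAAANNGAA on either strand, was found in 3 of the 7 promoters of these 6 genes, 1 in each of 3 genes, and in 8.56% of 32851 promoters. The matches lay 7 to 15 bases after the start of Cflar, 5 bases before to 3 after the second start of Ripk1, and 14 to 22 bases after the start of Ripk3. They are shown in capitals with 10 bases on each side, 5′ to 3′ in the direction of the gene, at chr1:58711488-58711516 on the plus strand, chr13:34002859-34002887 on the plus strand and chr14:55788825-55788853 on the minus strand. The match in Cflar is on the strand opposite to the gene. The starts counted from are those of RefSeq, and the Cflar match lies before the GENCODE start of the gene at 58711508.
Cflar: cacgtctgctTTCGGTTTCtgggcgtctc
Ripk1: aacgttcccgGAAATCGAAaagcgcggaa
Ripk3: cctcttatttGAAAGGGAAgttgtgaagt

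The gamma-activated site, TTCNNNGAA, occurred in the Ripk1 promoter at 2 places, 1 of which overlaps the GAAANNGAA match, and in 8.3% of all promoters. The NF-κB consensus was not found in the 6 genes and occurs in 4.51% of all promoters. A match is a description of letters and not of binding, and no binding was measured.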

How the data were processed

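Total RNA sequencing of the cytosolic fraction was deposited for 3 libraries of 1 group, with replicates numbered as in the labels. The authors deposited expected counts for genes and for transcripts, per the file headers. The build was mm10 and the annotation GENCODE M21, per the text deposited with each library. TPM was computed by the authors per effective length, per the file headers. The percent that each transcript takes of its gene is the authors' value, per the file headers. The interval bounds of TPM were deposited too, and what share they cover is not stated there. A second set of transcript tables deposited by the authors holds estimated counts and TPM of another quantification, per the file headers, and was summed to genes for alternatives. Aligner, quantifier, software versions and strandedness were not given in the sources used here.

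Of 81881 entries, 55536 were genes of the annotation, and the other 26345 held 0.3783%, 0.0931% and 0.0772% of counts and were left out. Symbols were mapped through the gene IDs, and 55450 of 55450 shared symbols were the same in the annotation. Levels were tested with limma 3.58.1 (R 4.3.3), an intercept-only fit of log2(TPM + 1) against 1 TPM, over the genes that had a TPM above 0 in some library. Adding 1 to TPM shrinks differences between low genes. Variation beyond counting noise was tested by chi-square on rounded expected counts, leaving out genes with a summed count under 30, which assumes that counts vary as Poisson counts. Benjamini-Hochberg adjustment ran over all genes tested, with a threshold of 0.05. TMM factors of 0.972, 1.013 and 1.016 came from edgeR 4.0.16. Its common dispersion gave a coefficient of variation of 0.188 between libraries, on a scale of 1 for the mean. Both tests were run on simulated data. Those for the chi-square test were Poisson counts, so they do not show how it behaves when replicates vary more. Coding spans, motifs and shared windows were computed with Biopython 1.88 and pandas 2.3.3 from GENCODE M21 transcripts and RefSeq promoters, and figures were drawn with matplotlib 3.10.9.

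The 9 genes, the comparison lists and the tests were chosen with earlier results of these data known. The genes named from the pathway lists were the 2 highest and the lowest by mean TPM and any not above 1 TPM. The values of 1 gene that this rule names are not reported here. Ratios within a library, retained-intron sums and shared windows were chosen after values were seen. The alternatives tried were 5 TPM as the level, 0.1 as the pseudocount, a minimum mean of 10 counts, the second tables, TPM rescaled over coding genes, TMM and DESeq2 1.42.0 size factors, other minimum counts, and the fits without each replicate in turn. The rescaling over coding genes left out those of the mitochondrial genome. Untreated and once-treated cells were not analysed here.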

Additional observations from a re-analysis of the deposited data

How the results depend on the processing

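All 9 genes stood above 1 TPM with 0.1 as the pseudocount, when genes needed a mean of 10 counts, in the second tables, after rescaling over coding genes and without any 1 replicate (9 in each). Against 5 TPM instead of 1, the number above was 6. Fadd then stood below the level by a log2 difference of -0.461 (limma adjusted p = 0.0012). Ripk3 was at -0.131 (adjusted p = 0.19) and Tradd at 0.012 (adjusted p = 0.91). The share of all genes above the level is not given for these alternatives, so the counts are descriptions. The median of the 9 mean levels was 16.3 TPM, 7.60 in the second tables and 54.0 after rescaling over coding genes, which follows from the smaller total. Without 1 replicate it ranged from 15.7 to 16.6. The median share of the leading transcript was 84.0%, 88.0% in the second tables (the cause was not tested), and 83.3% to 84.7% without 1 replicate. The coding share had a median of 99.3%, and 98.7% in the second tables.

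The count of genes that varied beyond counting noise was 7, and 6 with TMM sizes, DESeq2 size factors or no count minimum, where Ripk3 was lost (adjusted p = 0.20, 0.21 and 0.061), beside 67.2%, 67.1% and 45.5% of all genes tested. It was 7 in the second tables and with at least 100 counts, beside 72.1% and 74.0% of all genes tested. Without 1 replicate it was 5 to 6, beside 51.3% to 53.9% of genes. By TMM and by DESeq2 size factors 5 of the 9 genes were highest in replicate 1, against 3 after rescaling over coding genes and 4 in the second tables. In the second tables Mlkl was 11.9 times as high as Ripk3, and Ripk3 was 0.211 of Ripk1, whereas the ratio of Cflar to Casp8 was 4.32 and that of Zbp1-202 to Zbp1-201 was 1.36. Mlkl-202 held 75.5%, Cflar-205 held 67.6% and the 500-codon transcripts of Casp8 held 22.7% there. No paired analysis was possible because there is 1 group. Depth limits Ripk3-206, at 22.7 to 35.4 counts, and the smaller retained-intron transcripts.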
